A study of Mus musculus with 2 samples.

Results

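Sim1 glutamatergic nuclei of the mouse amygdala were 120 of the 19726 nucleus barcodes in the study, 41 from the wild-type (WT) library and 79 from the Sema6d-/- (KO) library. A nucleus was taken as a member when it held at least 500 genes, at most 5% mitochondrially encoded UMIs, at least 3000 UMIs, at least 1 Sim1 UMI, at least 1 UMI of the vesicular glutamate transporters Slc17a6 and Slc17a7 together, and no UMI of Gad1 or Gad2. A UMI marks 1 captured RNA molecule. Both libraries came from dissected amygdala of C57BL6/J mice aged 6 to 8 weeks, and nuclei were captured in droplets with version 2 of a kit that reads transcripts from the 5' end. There was 1 library per genotype. Neither the animals in each library nor the deleted part of Sema6d is described in the labels, so the KO is known only by its genotype. No difference between the libraries could be tested, and the intervals below are exact 95% intervals that cover counting error alone.

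Sim1 is a transcription factor of the basic helix-loop-helix and PAS family. It is best known for the development of the paraventricular and supraoptic nuclei of the hypothalamus, and neurons with a Sim1 history also populate parts of the amygdala, among them the nucleus of the lateral olfactory tract and the medial amygdala. Glutamatergic neurons load glutamate into synaptic vesicles with Slc17a7 (VGLUT1), which is usual in cortex and its derivatives, or with Slc17a6 (VGLUT2), which is usual in hypothalamus and thalamus. The Sema6d protein sits in the cell membrane, belongs to the semaphorin family of axon guidance molecules and signals with plexins.

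The 41 WT members held 395109 UMIs and the 79 KO members 800543 UMIs, with medians of 8731 and 9835 UMIs per nucleus. The median mitochondrial share was 0.485% in WT members and 0.208% in KO members, and other glutamatergic nuclei differed between the libraries in the same direction (0.543% and 0.190%). The libraries shared 128 barcodes, none of them among the members. The doublet caller marked 0 WT and 2 KO members. Levels are given in CPM, a gene's UMIs scaled to a total of 1000000 UMIs over the summed nuclei. The comparison group, called other glutamatergic nuclei, was 635 WT and 517 KO nuclei with at least 3 transporter UMIs, no Gad1 or Gad2 UMI and no Sim1 UMI.

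Sema6d, the targeted gene (chromosome 2, 124089969 to 124667770, mm10), stood in the members at 1192 CPM (WT) and 1791 CPM (KO). In the pooled members it was thus higher in the library labelled KO, but the direction depended on the mix of nuclei: it stood at a log2 ratio of -0.23 when the 4 groups of members described below had the same weights in both libraries, and at -0.21 (-0.39 to -0.02) in the largest of them. These counts do not check the label, because reads outside a deletion would still be counted and its place is unknown here. Sema6d was also higher in the members than in other glutamatergic nuclei of the same library, which held 540 CPM (WT) and 583 CPM (KO). The log2 ratio of members over those nuclei was 1.14 in WT and 1.62 in KO. This rested on the largest group, called the Crtac1 group below. With both libraries summed, the Pdzrn3 and Cdh18 groups stood near the other glutamatergic nuclei and the Zfhx3 group below them.

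Sim1 itself was a rule of selection and gives no finding. Its UMIs per nucleus ran from 1 to 19 in WT with a median of 2, and from 1 to 22 in KO with a median of 5. To judge how far stray RNA could supply a Sim1 UMI, each nucleus was thinned to 3000 UMIs. After thinning, 2.0% of WT and 6.84% of KO glutamatergic nuclei kept a Sim1 UMI (3.28% and 8.07% before thinning), against 0.0814% of 3685 WT and 0.319% of 2195 KO GABA nuclei (0.190% and 0.683% before). Median depths were 9030 and 9613 UMIs in the glutamatergic and 8412 and 8856 UMIs in the GABA nuclei. No Sim1 UMI was seen in 96 WT and 86 KO oligodendrocyte nuclei. At 3 counts of the total this allows up to 3.12% and 3.49% of nuclei with a UMI, and it does not limit the nuclei that express the gene. Astrocyte nuclei kept it in 1 of 323 in WT and 0 of 191 in KO. Within each library a Sim1 UMI was more frequent in glutamatergic than in GABA nuclei, and the share in GABA nuclei was also higher in KO. Oligodendrocyte and astrocyte nuclei were too few in WT for that comparison, since their intervals (up to 3.77% and 1.71%, exact binomial, counting error only) overlap that of the WT glutamatergic nuclei (1.30 to 2.94%).

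The other label markers were looked at next. Rmst, a long non-coding RNA gene, stood at 942 CPM (WT) and 924 CPM (KO), against 152 and 215 CPM in other glutamatergic nuclei. Plch1, a phospholipase C, stood at 190 and 182 CPM against 13.5 and 17.2 CPM. Both markers were high in both libraries. Slc17a6 was at 129 and 109 CPM against 65.4 and 88 CPM, which is under 2-fold when pooled (log2 0.52), and Slc17a7 was at 253 and 285 CPM, so these were not nuclei with Slc17a6 alone: 62 of 120 held both transporters, 36 only Slc17a7 and 22 only Slc17a6. Sema3c, a secreted semaphorin, had 2 UMIs in the WT and 187 UMIs in the KO members, so it marks members of the KO library alone. Sim1 and the transporters were set by the rule and by the choice of reference. Rmst, Plch1 and Sema3c were named as label markers with earlier results of these data known, so their levels describe the members and test nothing. Rmst and Plch1 were high in both libraries and Sema3c in KO only.

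Against other glutamatergic nuclei, 134 of 4635 genes (2.89%) were at least 2-fold higher in the pooled members and 182 (3.93%) at least 2-fold lower, 6.82% in either direction. Of these, 76 and 110 passed 2-fold the same way in each library. Since the members were chosen on these nuclei, the ratios describe them and test nothing. Among genes with at least 100 UMIs that passed 2-fold in each library, Plch1 stood highest after Sim1 (log2 3.53, 3.34 to 3.72). Pld5, a member of the phospholipase D family, followed with 334 CPM (WT) and 428 CPM (KO) against 39.5 CPM (log2 3.33). Erbb4, the neuregulin receptor that is best known from interneurons, stood at 1845 CPM (WT) and 1640 CPM (KO) against 180 CPM (log2 3.25, 3.18 to 3.31). The 223 other glutamatergic nuclei with at least 2 UMIs of Rspo2, a basolateral amygdala marker, held 110 CPM of it, while 21 with at least 3 UMIs of the thalamic marker Tcf7l2 held 1061 CPM.

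Several transcription regulators were among these genes. Dach1, a Dachshund family factor, stood at 868 CPM (WT) and 997 CPM (KO) against 129 CPM (log2 2.88), and its relative Dach2 at 101 and 245 CPM against 36.2 CPM (log2 2.45). In the nuclei with at least 3 Tcf7l2 UMIs Dach1 stood at 548 CPM, and the members were under 2-fold above these (log2 0.80). The Dach2 level rested on the Crtac1 group of members described below, which held 356 CPM. In the Pdzrn3, Zfhx3 and Cdh18 groups Dach2 stood at 36.7, 18.7 and 17.1 CPM. Nr2f2 (COUP-TFII), a nuclear receptor of caudal and ventral forebrain, stood at 101 and 157 CPM against 27.5 CPM (log2 2.33). Maml3, a Notch coactivator, stood at 863 and 943 CPM against 200 CPM (log2 2.19), and L3mbtl4 at 190 and 152 CPM against 21.9 CPM (log2 2.91). Summed over the members, all of them were above the other glutamatergic nuclei in both libraries, which the rule that named them required.

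Synpr, the vesicle protein synaptoporin, stood at 390 CPM (WT) and 537 CPM (KO) against 89.9 CPM (log2 2.44). Qrfpr, the receptor of the peptide QRFP, stood at 101 and 129 CPM against 23.0 CPM (log2 2.38). Hs6st3, a heparan sulfate 6-O-sulfotransferase, stood at 1544 and 2267 CPM against 452 CPM (log2 2.17). Klhl1, Gulp1, Tmem65, Ank1, Syt9, Sh3d19 and Efr3b had log2 ratios between 1.76 and 2.70. Klhl1 and Gulp1 stood higher in the nuclei with at least 3 Tcf7l2 UMIs (321 and 195 CPM) than in the members (255 and 126 CPM). Tmem65, Ank1, Syt9, Sh3d19 and Efr3b stood lower there than in the members.

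Of genes with at least 100 UMIs expected from the other glutamatergic nuclei, Npsr1, the neuropeptide S receptor, was lowest, with 1 UMI in all members against 141 CPM (log2 -7.40, -12.7 to -4.92). Nr4a2, an orphan nuclear receptor known from claustrum and deep cortical layers, had 3 UMIs against 100 CPM (log2 -5.32, -7.60 to -3.77). Sox5, a factor of deep-layer and amygdalar projection neurons, stood at 60.7 CPM (WT) and 28.7 CPM (KO) against 404 CPM (log2 -3.36). The guidance gene Sema3e was at 12.7 and 5.00 CPM against 87.1 CPM (log2 -3.53). Sulf1, Col23a1, Sdk1, Mpped1 and Gsg1l were also among the lowest 10, with log2 ratios from -4.27 to -2.91.

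**Figure D1:**
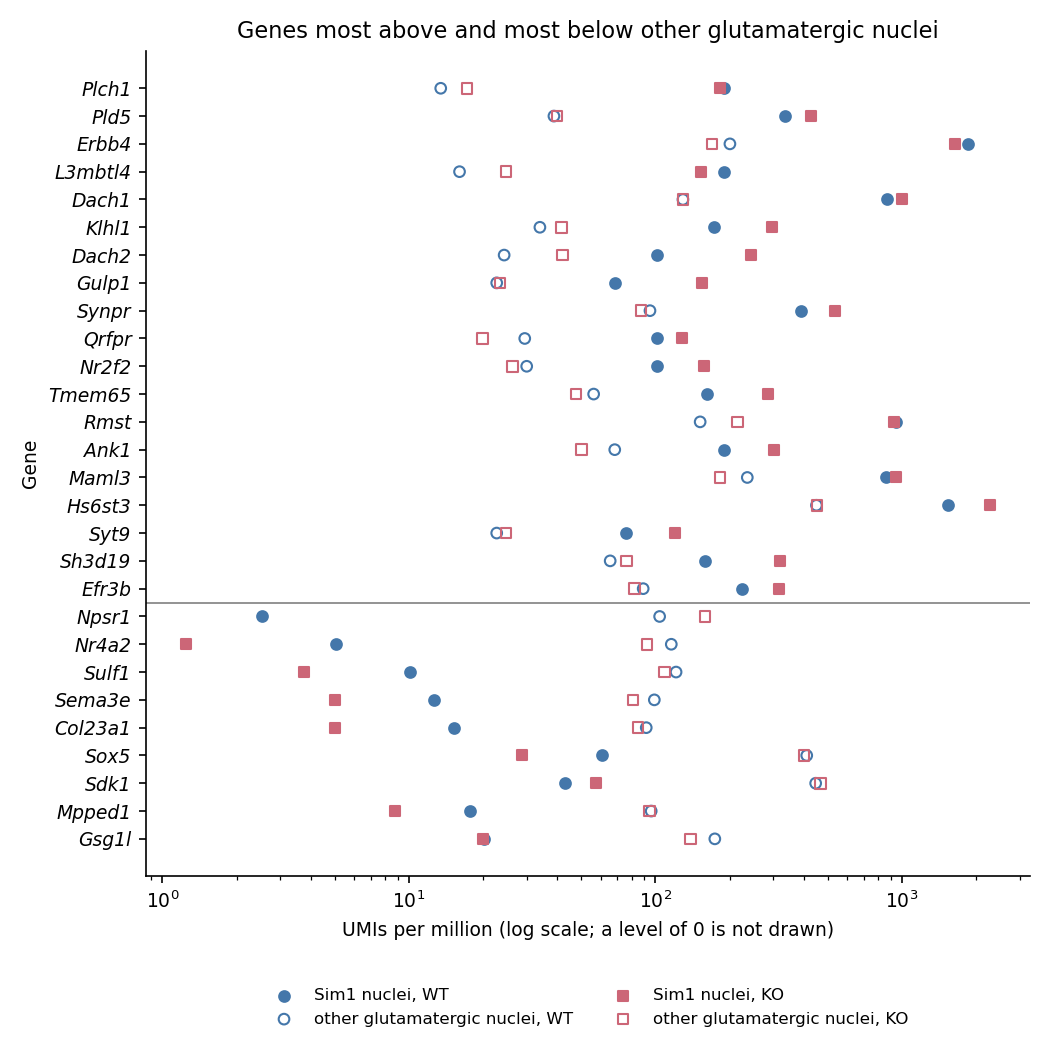
Levels (CPM, log axis) of the 19 highest genes after Sim1 and 9 of the 10 lowest genes of the members' profile, with Sim1 nuclei as filled and other glutamatergic nuclei as open symbols, circles for WT and squares for KO. Above the line each filled symbol lies to the right of the open symbol of its library, and below the line to the left of it. The rule that named these genes required this. Npsr1 has no KO symbol because it had 0 UMIs there.

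Of 20 hypothalamic transcription factors, 12 were at 0 UMIs in all members, and these were also rare in other glutamatergic nuclei (0 to 1.31 CPM). Otp, which partners Sim1 in the paraventricular nucleus, had 0 WT and 3 KO UMIs, and Arnt2, the dimer partner of Sim1, was the only list member with enough counts, at 177 CPM (WT) and 227 CPM (KO) against 172 CPM (log2 0.29). Among the thalamic markers Tcf7l2 had 2 UMIs and Gbx2 and Prkcd none, and 0 of 1 gene tested passed 2-fold, Rora standing at log2 -0.79. Prox1 had 37 UMIs, 30.9 CPM against 6.96 CPM, which is under the count needed for a call. The telencephalic factors Neurod2 (31 UMIs), Neurod6 (31 UMIs) and Tbr1 (27 UMIs) were under the count needed for a call. They stood at 25.9, 25.9 and 22.6 CPM against 29.2, 30.2 and 38.3 CPM. Also under that count, Emx1, Fezf2 and Lhx2 had 0, 2 and 3 UMIs against 8.13, 11.9 and 12.4 CPM. Neurod1 and Bhlhe22 went the other way, at 5.85 and 19.2 CPM against 2.36 and 5.54 CPM. Of 9 telencephalic factors tested, 1 was at least 2-fold higher (Nr2f2) and 4 at least 2-fold lower, among them Sox5, Satb1 and Bcl11a. Of all genes tested, 2.89% were higher and 3.93% lower. The median log2 ratio of the 9 factors was 0.03, against 0.06 over all genes tested.

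Markers of neighbouring amygdalar and claustral types were compared next. Rspo2, a Wnt agonist that marks basolateral amygdala neurons, had 0 WT and 2 KO UMIs against 81.8 CPM in other glutamatergic nuclei. Of 7 basolateral markers tested, 1 was higher and 2 lower, against 2.89% higher and 3.93% lower of all genes tested. The higher one was Rorb, an orphan nuclear receptor, at 258 CPM (WT) and 96.2 CPM (KO) against 50.1 CPM (log2 1.58), though in the Crtac1 group of members described below it stood at -4.99. Of 5 claustrum and endopiriform markers tested, Synpr was higher and Nr4a2, Ntng2 and Nnat were lower. The near absence of Rspo2 and Nr4a2 and the higher level of Synpr were seen in each library.

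Among signalling genes, the mineralocorticoid receptor Nr3c2 stood at 415 CPM (WT) and 671 CPM (KO) against 176 CPM (log2 1.74), and the growth hormone receptor Ghr at 50.6 and 26.2 CPM against 106 CPM (log2 -1.63). These were 1 higher and 1 lower of 4 hormone and stress receptors tested, against 2.89% higher and 3.93% lower of all genes tested. Cnr1, the cannabinoid receptor, stood at 286 and 432 CPM against 126 CPM (log2 1.60). It was the only one of 7 feeding circuit receptors tested to be higher, while Htr2a, Cckbr and Adcyap1r1 were lower. Mc4r, the melanocortin receptor that Sim1 neurons of the hypothalamus are known for, had 2 WT and 16 KO UMIs, which is 15.1 CPM against 1.23 CPM and under the count needed for a call. Of the neuropeptides, 0 of 3 tested passed 2-fold. Oxt had 0 UMIs, Avp 4 and Crh 2, while Adcyap1 had 34 UMIs (28.4 CPM against 4.44 CPM).

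Among semaphorins, plexins and neuropilins, Sema6d and Sema3c were higher and Sema3a, Sema3e and Sema5b lower of 14 tested, with a median of -0.40. Over all genes tested 2.89% were higher and 3.93% lower, with a median of 0.06. Sema3c passed through the KO nuclei alone (log2 0.13 in WT and 4.76 in KO), and Sema6d through the Crtac1 group of members described below. Plxna4, a plexin that serves as a receptor for class 6 semaphorins, stood at 653 CPM (WT) and 744 CPM (KO) against 580 CPM (log2 0.30). In the ephrin, Slit and netrin list 2 of 21 were higher, and 4 were lower. The higher ones were the ligand Slit2 at 316 CPM (WT) and 681 CPM (KO) against 228 CPM (log2 1.30) and the netrin-G gene Ntng1 at 1043 and 465 CPM against 244 CPM (log2 1.43, and -1.29 in the Crtac1 group alone). The lower ones were Epha6, Efna5, Ntng2 and Lrrc4c. Of 13 classical cadherins none was higher, and Cdh6 and Cdh9 were lower (median -0.53). Flrt3 was higher and Cntnap2 lower of 27 synaptic adhesion genes (median 0.11).

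Over all genes tested, 2.89% were higher than in other glutamatergic nuclei and 3.93% lower, with a median of 0.06. Of 18 glutamate receptor genes, Grin3a, an NMDA receptor subunit, was the 1 higher, at 192 CPM (WT) and 307 CPM (KO) against 92.9 CPM (log2 1.54). The 5 lower ones included the kainate subunits Grik1, Grik3 and Grik4 and the metabotropic receptor Grm8, at a list median of -0.32. None of 10 GABA-A receptor subunits passed 2-fold (median -0.08). Of 27 potassium channel genes, Kcnip2 was higher and Kcnb2, Kcnmb4, Kcnn3 and Kcnt2 lower (median -0.24). Among 6 activity-induced genes tested, Nr4a2 was the 1 past 2-fold, and it was lower.

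In the members, the 8 oligodendrocyte markers summed to 261 CPM (WT) and 385 CPM (KO), against 273 and 367 CPM in other glutamatergic nuclei, with 0 of 2 tested genes past 2-fold. The 8 astrocyte markers summed to 557 and 730 CPM against 986 and 956 CPM, with 1 of 3 tested lower (Slc4a4), against 3.93% of all genes tested. Without the 1 KO nucleus that held most Gpc5 UMIs, an alternative chosen after seeing the data, the KO sum was 504 CPM, below the WT sum instead of above it. Microglia markers summed to 53.1 and 45.0 CPM, oligodendrocyte precursor markers to 38 and 68.7 CPM, and vascular and fibroblast markers to 5.06 and 13.7 CPM, with none tested. Of the 9 GABA neuron markers, Gad1, Gad2, Dlx2 and Dlx5 were at 0, the first pair by the rule. Slc32a1, the vesicular GABA transporter, had 16 UMIs (13.4 CPM against 10.4 CPM). What part these cell types have in the members' counts was not tested.

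The 120 nuclei differed among themselves. Grouping them on 1000 variable genes gave 4 groups, each called here by a leading gene. The genes used left out the rule genes, the label markers and any gene whose level differed by more than 0.5 on the log2 scale between the libraries in other glutamatergic nuclei. Sema6d was not left out, so its levels by group may not be independent of the grouping. The Crtac1 group had 61 nuclei, the Pdzrn3 group 25, the Zfhx3 group 22 and the Cdh18 group 12. The same 61 nuclei formed the Crtac1 group in 12 of 12 settings (2, 4 or 6 components and 2 to 5 groups), while the other 59 were divided differently. Since the groups were formed on these counts, their leading genes describe them and are no finding, and no group was given a cell type name.

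**Figure D2:**
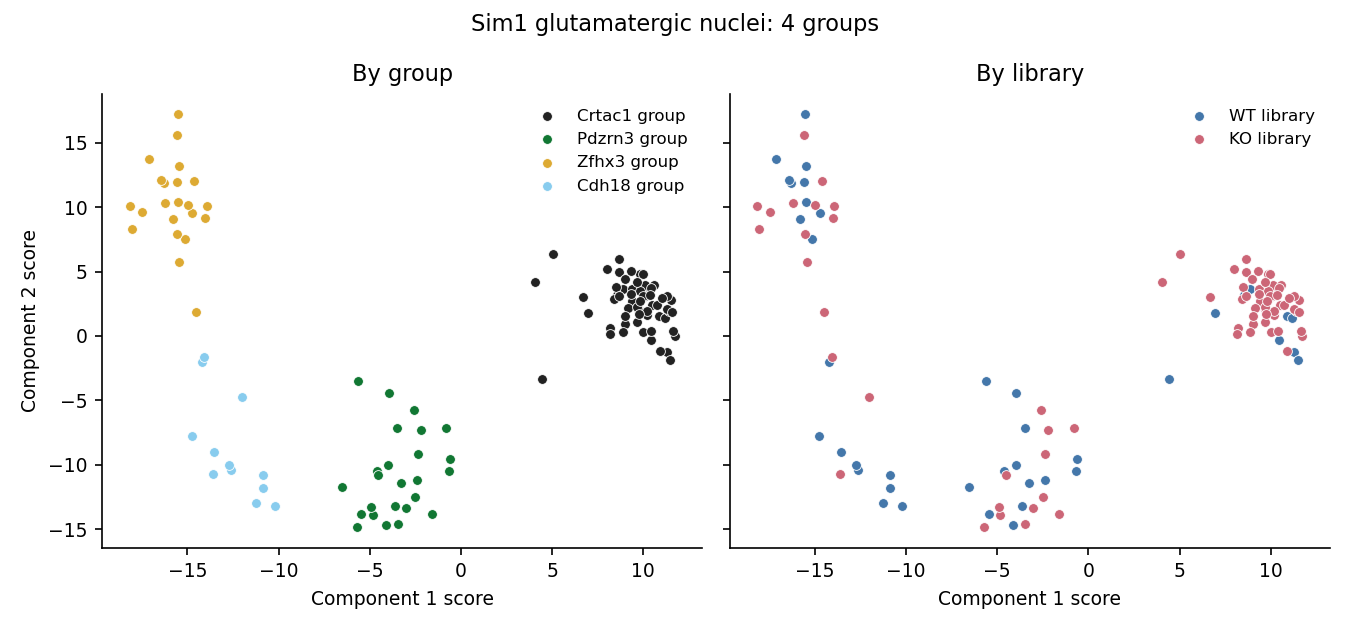
The 120 Sim1 glutamatergic nuclei by their scores on components 1 and 2 (no unit), coloured by group on the left and by library on the right. The 61 nuclei of the Crtac1 group lie apart on the right of component 1, and 52 of them are from the KO library.

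The Crtac1 group carried most of the Sim1 RNA. Its nuclei had a median of 8 Sim1 UMIs (1 to 22), against 3, 1.5 and 2 in the Pdzrn3, Zfhx3 and Cdh18 groups. In level this was 893 CPM (WT) and 875 CPM (KO), and 205 to 314 CPM in the other groups of either library. Sema6d was also highest there, at 2946 CPM (WT) and 2547 CPM (KO) of the Crtac1 group against 544, 312 and 650 CPM in the Pdzrn3, Zfhx3 and Cdh18 groups with both libraries summed. Each of the 61 nuclei held at least 6 Sema6d UMIs. Since Sema6d was open to use in the grouping, these levels describe the groups and are no finding.

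Other genes that stood high in the Crtac1 group were Astn2, an astrotactin involved in neuronal migration, at 3416 CPM against 188 to 749 CPM in the other 3 groups, Slit2 at 945 CPM against at most 281 CPM, and Pcsk5, a proprotein convertase, at 475 CPM against at most 90.1 CPM. Crtac1, which encodes a secreted cartilage matrix protein, was found in 58 of the 61 nuclei. The potassium channel gene Kcnd2 stood at 4176 CPM against 890 to 2035 CPM, and Cnr1 at 598 CPM against at most 244 CPM. Mc4r, with 18 UMIs in all members, had 17 of them here. Genes that were low here were Sgcz (134 CPM against 2799 to 6246 CPM), Htr2c (32.3 CPM against at least 214 CPM) and Rorb (1 UMI in 61 nuclei).

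The other groups differed among themselves in transporter and transcription factor genes. The Zfhx3 group held Slc17a6 at 243 CPM and Slc17a7 at 18.7 CPM, and 19 of its 22 nuclei had only Slc17a6. It also held Prlr, the prolactin receptor (27 of the members' 28 UMIs), and Zfhx3, a homeobox factor (48 UMIs against 1 to 4 in the others). The Pdzrn3 group held Slc17a7 at 320 CPM, Mef2c at 1011 CPM and Rorb at 337 CPM. In the Cdh18 group Cdh18 reached 3422 CPM, Ntng1 2601 CPM and Rorb 659 CPM, but only 3 of its 12 nuclei were KO. In the Zfhx3 group the median depth was 6774 UMIs, the lowest of the 4 groups, against 9628 to 11563 UMIs.

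**Figure D3:**
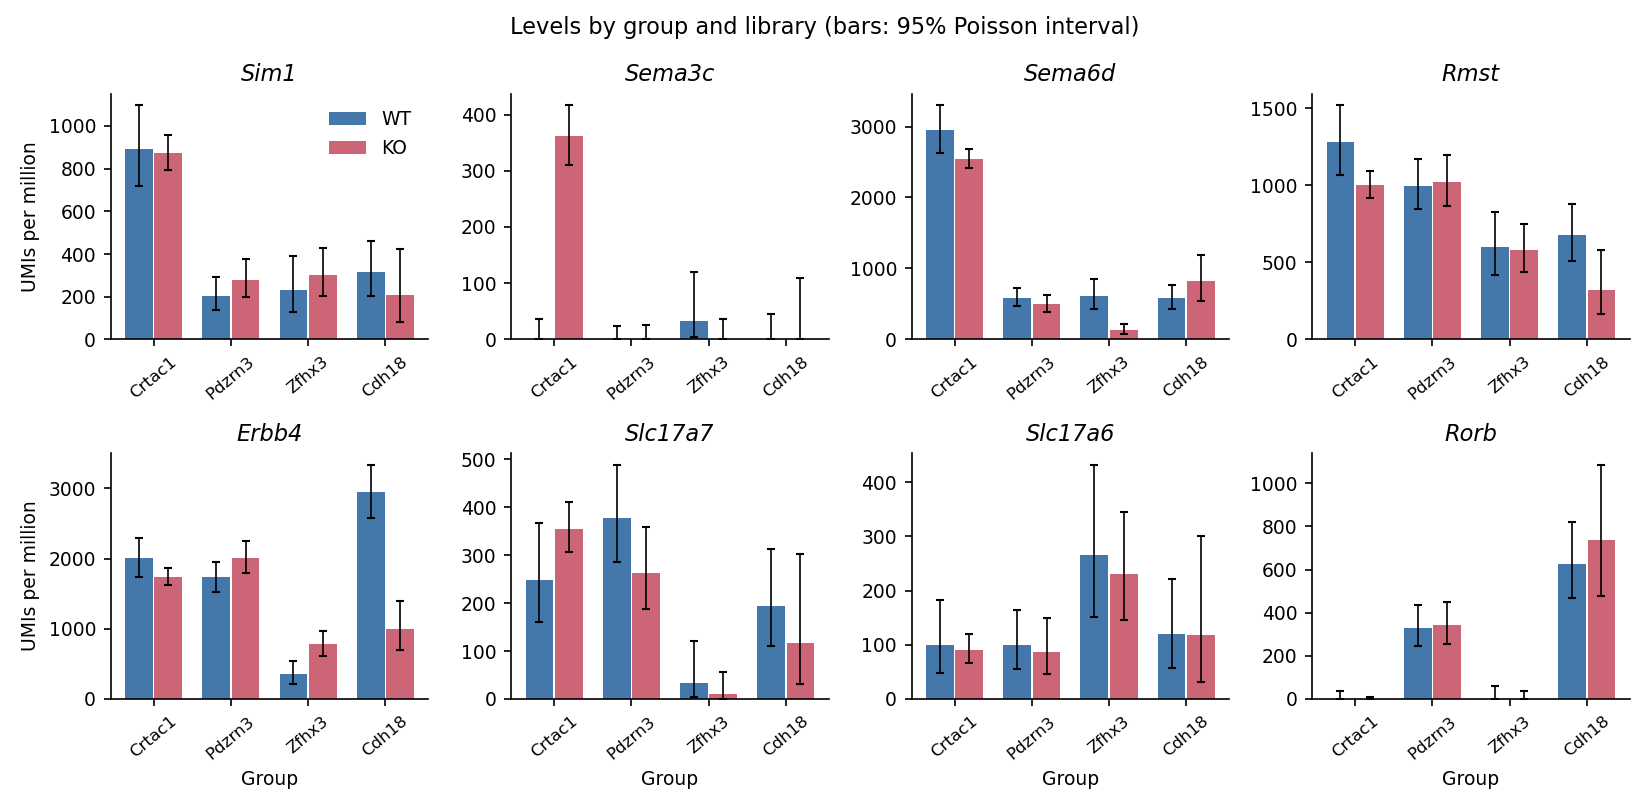
Levels of 8 genes (CPM) in the 4 groups of Sim1 nuclei, WT in blue and KO in red, with error bars for the exact 95% Poisson interval. Sim1 and Sema6d are highest in the Crtac1 group of both libraries, Sema3c stands at 361 in the KO nuclei of that group and at 0 in the WT nuclei, Slc17a7 is lowest in the Zfhx3 group, and Rorb is confined to the Pdzrn3 and Cdh18 groups but for 1 UMI.

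Members were a larger share of the KO library. They were 0.450% of WT nuclei with at least 3000 UMIs (41 of 9114, 0.323 to 0.610%) and 1.37% of KO nuclei (79 of 5773, 1.08 to 1.70%), a ratio of 3.04 (2.06 to 4.55). Among glutamatergic nuclei alone the shares were 3.28% and 8.07%, a ratio of 2.46 (1.67 to 3.68). By group, the Crtac1 group was 0.0987% of WT nuclei (9 nuclei) and 0.901% of KO nuclei (52 nuclei), a ratio of 9.12 (4.45 to 21.1). For the Pdzrn3 group it was 1.46 (0.608 to 3.46), for the Zfhx3 group 1.89 (0.75 to 4.90) and for the Cdh18 group 0.526 (0.0916 to 2.11), and these 3 intervals include 1. With 1 library per genotype, genotype, dissection and library cannot be told apart, and a group that is mostly of 1 library may stand for that library.

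**Figure D4:**
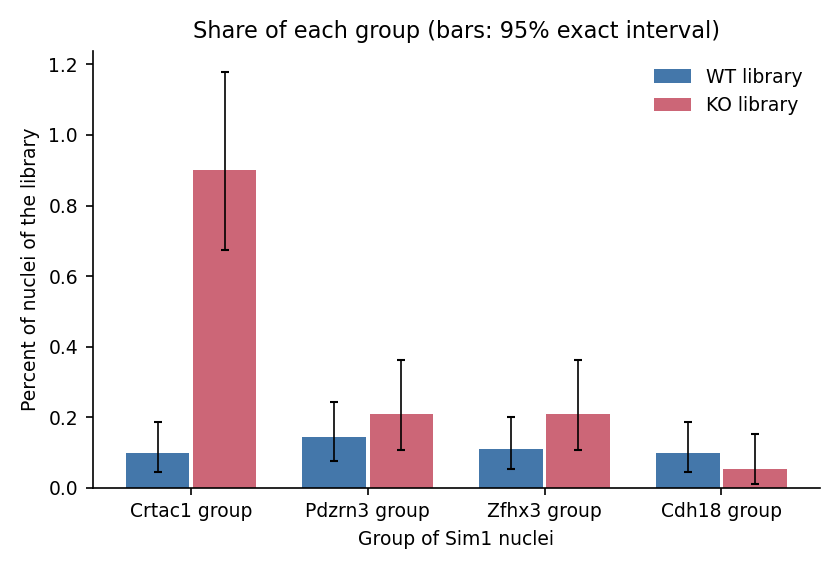
Share of each group among nuclei with at least 3000 UMIs (percent), WT in blue and KO in red, with error bars for the exact 95% binomial interval. The Crtac1 group is 0.0987% of WT and 0.901% of KO nuclei, and the intervals of the other 3 groups overlap between the libraries.

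Within the members, 97 of 4336 genes (2.24%) were at least 2-fold higher in KO and 97 (2.24%) at least 2-fold lower, 4.47% in either direction. With median-of-ratios scaling the split was 131 higher and 73 lower, and with TMM scaling 120 and 76. The middle 90% of ratios ran from -0.77 to 0.75 in the members and from -0.39 to 0.40 for the same genes in other glutamatergic nuclei. The 2 libraries differed in their mix of groups. With the same group weights in both libraries, 91 of the 194 genes stayed past 2-fold in their direction and 10 turned sign, and 97 (2.24%) and 65 (1.5%) genes passed in all.

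The genes highest in KO were Sema3c, Gpc5, Ptgds, Bmper, Myef2, Strip2, Pcsk5, Crtac1, C1ql3 and Astn2. Of these, Bmper, Strip2, Crtac1 and Astn2 are leading genes of the Crtac1 group, and they dropped from log2 ratios of 2.12, 1.97, 1.60 and 1.06 to 0.88, 0.65, 0.54 and -0.04 with the same group weights. Pcsk5 went from 1.56 to 0.66. For Gpc5, a glypican that astrocytes express strongly, 186 of the 220 UMIs lay in 1 KO nucleus of the Zfhx3 group, and without it the log2 ratio was -0.31 instead of 2.97. Ptgds, prostaglandin D2 synthase, stood at 20.2 CPM (WT) and 120 CPM (KO) (log2 2.57) and differed in the same direction in other glutamatergic nuclei (log2 1.93). Myef2, a repressor first known from myelin genes, stood at 78.5 CPM (WT) and 252 CPM (KO) (log2 1.69, 1.13 to 2.28), at 1.60 with the same group weights and at 0.30 in other glutamatergic nuclei. Its value was higher in the KO nuclei of each of the 4 groups, with an interval that left out 0 in the Crtac1 and Cdh18 groups. Myef2 lies on chromosome 2 (125084628 to 125123661, mm10), close to the targeted gene Sema6d (124089969 to 124667770). What part that position has in the difference was not tested.

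The genes lowest in KO were Il1rapl2, Cdh18, Cpne4, Pdzrn3, Cntnap5c, Zmat4, Sgcz, Adcy8, Sipa1l2 and Npas3. They include the genes that name the Cdh18 and Pdzrn3 groups, and the value of each of the 10 moved towards 0 with the same group weights. Cdh18, a cadherin, went from -2.63 to -1.30, Cpne4, a copine, from -2.0 to -0.78, and Sgcz, a sarcoglycan, from -1.44 to -0.36. Cntnap5c, a neurexin-like adhesion gene, stood at 585 CPM (WT) and 159 CPM (KO) (log2 -1.88, -2.21 to -1.56), and at -1.42 in other glutamatergic nuclei. For Cdh18 the KO level was lower inside 3 of the 4 groups, with 4174 CPM in the 9 WT and 1589 CPM in the 3 KO nuclei of the group named for it, 1480 and 470 CPM in the Zfhx3 group and 456 and 182 CPM in the Pdzrn3 group. In the Crtac1 group Cdh18 stood the other way, at 49.6 CPM (WT) and 75.3 CPM (KO) (log2 0.60, -0.74 to 2.30). For Pdzrn3 itself, 44 of 164 UMIs came from 1 WT nucleus. Il1rapl2, a synaptic relative of the interleukin receptors, stood at 542 and 77.4 CPM (log2 -2.81) and at -1.87 with the same group weights, while other glutamatergic nuclei gave 0.14.

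**Figure D5:**
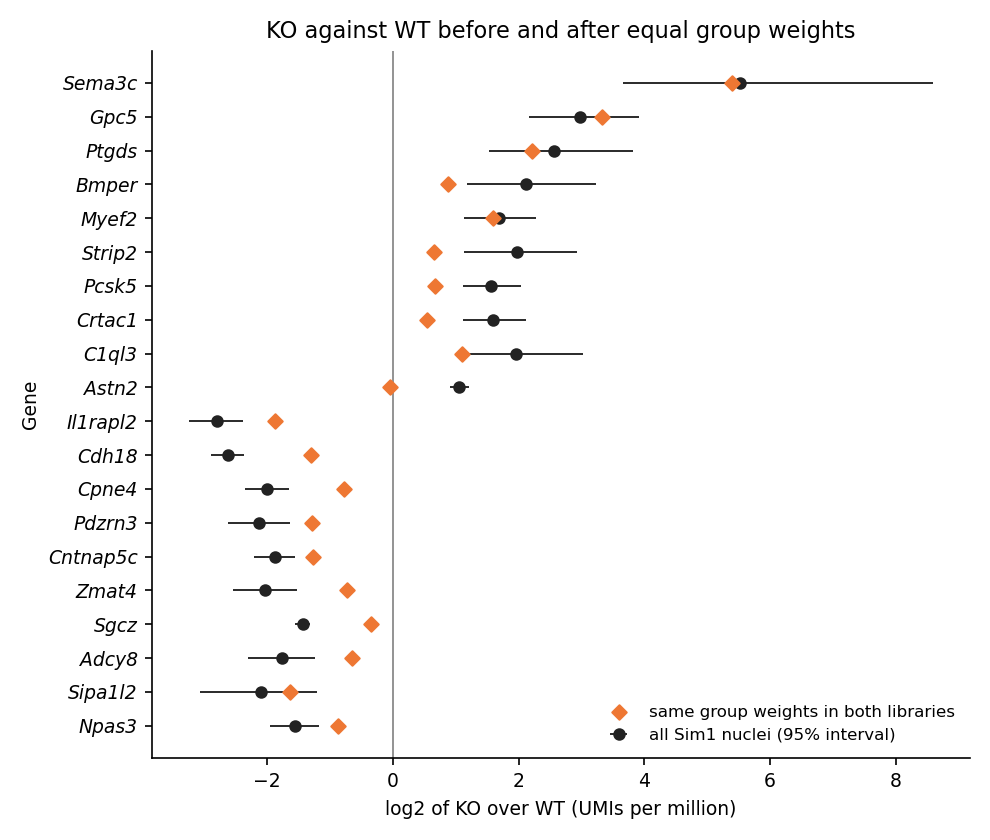
Log2 ratio of KO over WT for the 10 highest and 10 lowest genes, over all Sim1 nuclei (black, with exact 95% counting interval) and with the same weights for the 4 groups in both libraries (orange). Astn2 moves from 1.06 to -0.04 and Sgcz from -1.44 to -0.36, while Sema3c stays at 5.39 and Myef2 at 1.60.

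Sema3c (chromosome 5, 17574281 to 17730268, mm10) had the highest ratio. The 41 WT members held 2 UMIs in 1 nucleus of the Zfhx3 group, and the 79 KO members held 187 UMIs, all in 46 of the 52 KO nuclei of the Crtac1 group (log2 5.53, 3.66 to 8.58). In that group the 9 WT nuclei had 0 UMIs of Sema3c among 100829 UMIs, and the KO nuclei stood at 361 CPM (311 to 417). With the WT level set to a floor of 3 counts over the group, KO was 12.1-fold higher (log2 3.60). The exact interval of that log2 ratio had a lower bound of 3.29 and no upper bound. A count of 0 in 9 nuclei allows up to 33.3% of nuclei with a Sema3c UMI at this depth, and sets no limit on nuclei that express it. The same 9 nuclei held Sim1, Sema6d and Astn2 at 893, 2946 and 3511 CPM, against 875, 2547 and 3398 CPM in KO. Crtac1 itself stood there at 307 CPM (WT) and 469 CPM (KO) (log2 0.61, 0.07 to 1.20). Astn2 and Crtac1 are leading genes of the group, so the grouping itself used such genes. Elsewhere Sema3c was low in both libraries and higher in KO. Other glutamatergic nuclei held 4.62 CPM (WT) and 8.61 CPM (KO), and GABA nuclei 19.5 and 27.9 CPM.

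Within the Crtac1 group taken alone, 122 of 2207 genes (5.53%) were at least 2-fold higher in KO and 50 (2.27%) at least 2-fold lower. Sim1 (log2 -0.03, -0.36 to 0.31) and Astn2 (-0.05, -0.21 to 0.12) had intervals that include 0. Sema6d was lower in KO there (-0.21, -0.39 to -0.02), although it was higher in KO over all members (0.59), where the Crtac1 group weighs more. With the same group weights Sema6d stood at -0.23. Its widest gap was in the Zfhx3 group, at 615 CPM in 6 of 10 WT nuclei and 130 CPM in 4 of 12 KO nuclei (log2 -2.24, -3.28 to -1.30), a group with 37 and 13 UMIs of it. In the Pdzrn3 group it stood at 588 CPM (WT) and 498 CPM (KO) (log2 -0.24, -0.70 to 0.22), and in the Cdh18 group at 579 CPM (WT) and 824 CPM (KO) (log2 0.51, -0.22 to 1.21), the other direction.

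In the members, the 25 activity-induced genes summed to 1162 CPM (WT) and 536 CPM (KO). In other glutamatergic nuclei the sum was also lower in KO. Homer1, a postsynaptic scaffold gene, stood at 547 CPM (WT) and 206 CPM (KO) (log2 -1.41, -1.71 to -1.11), and at -1.34 with the same group weights. In other glutamatergic nuclei it stood at 522 and 305 CPM (log2 -0.78). By group it was 615 and 191 CPM in the Crtac1 group, 648 and 323 CPM in the Pdzrn3 group and 603 and 265 CPM in the Cdh18 group, and 99.8 and 89.9 CPM in the Zfhx3 group. Of the 4 genes of the list with enough counts, 1 was at least 2-fold lower (Homer1) and 1 at least 2-fold higher (Nptx2, a neuronal pentraxin, at 25.3 and 52.5 CPM). The immediate early genes had few UMIs, with Fos at 10 in WT and 2 in KO, Egr1 at 24 and 17, Nr4a3 at 15 and 3 and Arc at 7 and 4. Egr1 was lower by the same measure in other glutamatergic nuclei (log2 -1.51, against -1.52 in members).

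The lists are set beside all genes tested, of which 2.24% were at least 2-fold higher in KO and 2.24% at least 2-fold lower. In the ephrin, Slit and netrin list 2 of 20 were higher in KO (Epha3 and Slit2) and 1 lower (Ntng1), and the list's median went from -0.32 to 0.01 with the same group weights. Among 11 cadherins 2 were lower (Cdh18 and Cdh20), and among 17 glutamate receptor genes 2 (Grik4 and Grm8). Cntnap5c was the 1 lower of 27 synaptic adhesion genes, Gabra5 the 1 lower of 10 GABA-A receptor subunits, Kcnb2 the 1 lower of 23 potassium channels and Rorb the 1 lower of 4 basolateral markers. With the same group weights Ntng1 and Rorb turned to 0.070 and 0.14, and within the Crtac1 group Cdh18, Cdh20 and Grm8 turned to 0.60, 0.34 and 0.45. Sema3c was the 1 higher of 10 semaphorins, plexins and neuropilins. None of 5 telencephalic factors, 1 hypothalamic factor, 1 thalamic marker, 3 claustrum markers, 2 neuropeptides, 3 hormone receptors and 4 feeding circuit receptors tested passed 2-fold. Of 3 astrocyte markers tested, Gpc5 was higher through the 1 nucleus named above, and Slc4a4 was lower (0.054 after thinning to 3000 UMIs).

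Nuclei just outside the rule give the same counts with other nuclei of the same libraries. Of 237 Sim1-positive nuclei, 101 were left out for a Gad1 or Gad2 UMI and 16 for having neither transporter nor Gad. The 43 nuclei with a transporter and exactly 1 Gad UMI held Rmst, Plch1 and Erbb4 at 912, 146 and 1476 CPM, against 930, 185 and 1708 CPM in the members. The 26 with at least 2 Gad UMIs and no transporter held 285, 10.7 and 1431 CPM of them. The 23 with at least 2 Gad UMIs and a transporter held 320, 49.5 and 1786 CPM. Rmst and Plch1 were thus lower in the nuclei with at least 2 Gad UMIs, while Erbb4 did not separate these sets. On the inner side, the 20 members with 1 Sim1 UMI held Rmst at 775 CPM and Sema6d at 581 CPM, and the 47 with 6 or more at 1041 and 2388 CPM. Among left-out nuclei with 1 Gad UMI or no transporter, 5 WT and 27 KO nuclei had at least 3 Sim1 UMIs. The 5 WT nuclei had 0 Sema3c UMIs among 62052 UMIs (0 to 59.4 CPM), and the 27 KO nuclei had 64 (235 CPM, 181 to 300) in 17 nuclei. With the floor of 3 counts for WT, KO was 4.87-fold higher. The 2 sets were not alike, since 2 of the 5 WT and 23 of the 27 KO nuclei held Crtac1. Sim1 stood at 451 CPM in the WT and 853 CPM in the KO set. Without the minimum on Sim1, 2 of 21 WT nuclei held 6 Sema3c UMIs (31.9 CPM) and 18 of 47 KO nuclei held 66 (152 CPM).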

How the data were processed

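Nuclei of the amygdala were sequenced in 2 libraries, 1 per genotype. The deposited matrices hold raw UMI counts (32285 genes), made by the authors with Cell Ranger 6.0.0 on mm10 per the submitters' processing notes. The authors' annotation and intron setting are not known here. Symbols were matched for 32158 genes, and positions are from the GENCODE annotation of that build. The WT library held 11060 barcodes and 85124128 UMIs, the KO library 8666 and 60402979.

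UMIs were summed over nuclei and scaled to CPM. The reference was weighted by the members' UMIs per library. A gene needed 50 UMIs (for lower genes, 50 expected), a call was a 2-fold ratio, and 0 was set to 3 counts. With 1 library per genotype no test was run. Intervals are exact Poisson, conditional binomial or Clopper-Pearson 95% intervals. The ratio code was tested on simulated data. Doublets were called with Scrublet in scanpy 1.11.5 and kept. TMM scaling used edgeR 4.0.16 in R 4.3.3. Groups came from k-means on 2 components (scikit-learn 1.9.0) after the data were seen.

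Named genes were the 20 highest and 10 lowest of the profile (100 UMIs, past 2-fold in each library), the 10 highest and lowest of KO against WT by the interval bound nearest 0, and up to 6 per list. Genes named by group, the per-nucleus counts and the nuclei outside the rule were chosen after their values were seen. The members and lists were chosen with earlier results of these data known. A few genes of the lists are not reported here.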

Additional observations from a re-analysis of the deposited data

How the results depend on the processing

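No paired analysis was possible because each genotype has 1 library and no replicate could be left out. The share of members was higher in KO in each of the 10 planned settings, with ratios from 2.56 to 4.06. The shares themselves moved to 1.01% of KO nuclei with a minimum of 1000 UMIs, to 0.307% of WT nuclei with at least 2 Sim1 UMIs, to 0.296% of WT and 0.953% of KO nuclei with at least 3 transporter UMIs, and to 1.87% of KO nuclei with up to 1 Gad UMI. The Crtac1 group alone, chosen after seeing the data like the group weights and the nucleus left out, gave 0.0987%, 0.901% and a ratio of 9.12.

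Counts of genes followed the depth. Those higher and lower in the profile were 51 and 84 in WT alone, 64 and 78 after thinning, 258 and 300 with a minimum of 20 UMIs and 53 and 70 with 200. Those higher and lower in KO were 35 and 31 after thinning, 353 and 315 with a minimum of 20 UMIs and 17 and 22 with 200, and 50 were lower in the Crtac1 group alone. TMM scaling moved the median profile ratio over all genes from 0.06 to -0.06.

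Of 962 values for 74 genes of the profile, 3 turned sign: Bmper in WT alone (-0.38), and Ntng1 (-1.29) and Rorb (-4.99) in the Crtac1 group alone. Of 432 values for 36 genes between KO and WT, 12 did. In the Crtac1 group alone these were Astn2 (-0.047), Cdh18 (0.60), Cdh20 (0.34), Cpne4 (0.14), Gpc5 (-0.78) and Grm8 (0.45). With the same group weights they were Astn2 (-0.043), Ntng1 (0.070) and Rorb (0.14). Gpc5 turned without 1 nucleus (-0.31). Slc4a4 turned after thinning (0.054) and with at least 2 of Sema3c, Rmst and Plch1 detected (0.053). The cause was not tested.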
